A study of Rattus norvegicus with 6 samples.

Results

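The genes described here are 32 rat genes of blood coagulation and fibrinolysis, taken from a list of names: 16 clotting factors and 16 inhibitors of clotting or genes of fibrinolysis. Their probes were found through the probe's accession, which named 15284 genes on the array. Of the 32 genes, 28 had a probe and 27 were measured above background, while F5, F11, F13b and Proz had no probe named in this way and were not analysed here. Livers of 3 male Sprague-Dawley rats that received 1000 mg/kg/day of BBMP, which is 2,2-Bis(Bromomethyl)-1,3-Propanediol, a flame retardant that carries bromine, were set against those of 3 rats that received only the vehicle, corn oil. Each rat had 1 array. The rats were 5 weeks old at purchase and belong to the outbred Crl:CD(SD) stock. The length of dosing is stated as 28 days in the design of the series but as 9 weeks in the protocol. The comparison asks how liver gene expression differs after the chemical.

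Coagulation is a cascade in which inactive plasma proteases, the zymogens, are cut in turn until thrombin converts fibrinogen to fibrin. The liver makes most of these proteins: hepatocytes secrete fibrinogen, the vitamin K-dependent zymogens, most of the contact system, antithrombin, protein C and plasminogen. Factor VIII comes mainly from the sinusoidal endothelium, and tissue factor and the plasminogen activators come mainly from cells other than hepatocytes. Inhibitors of the serpin family and the protein C system hold thrombin formation in check, and plasmin dissolves the clot.

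Signals are given as log2 of the processed spot signal over each array's 75th percentile. Between 60.1% and 64.4% of 61573 probes were well above background on an array, and precision is limited by there being 6 arrays. On the main component of variation (32.9% of the variance) the BBMP livers lay at -28.69 to -19.09 and the corn oil livers at 9.60, 50.84 and 14.82, with corn oil 2 farthest out. The BBMP arrays shared 1 slide and 1 scan, and the corn oil arrays shared others, so the effect of the chemical and that of the slide or scan cannot be told apart for any gene. The p-values measure the spread between these 6 rats. All 10 listed hepatocyte markers were well above background in the livers, with a summed signal of 3459 to 4161 times the 75th percentile after BBMP and 3778 to 4136 times in corn oil livers. Of these markers 6 had a higher and 4 a lower mean after BBMP, with a median log2 difference of 0.045, and Cps1 (0.49) and Tdo2 (0.72) were higher at an unadjusted p under 0.05.

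After BBMP most measured coagulation genes had slightly lower signals, and none passed the test over all features. Of 27 genes, 21 had a lower mean and 6 a higher mean in BBMP livers, with a median log2 difference (BBMP minus corn oil) of -0.15 against -0.01 over all 28112 features. At limma's adjusted p of 0.05, 0 of the 27 passed, against 0.00711% of all features, and the smallest adjusted p was 0.405, for Fga. At an unadjusted p under 0.05 there were 4 genes (14.8%), all lower after BBMP: the fibrinogen chains Fga and Fgb, the contact factor F12 and the plasminogen activator Plat. Among all features 10.8% had such a p, 6.09% lower and 4.7% higher. With normexp background correction 4 genes again had such a p, Fgb, F2, F12 and Plg. With quantile normalization F12 and Plat were left, so F12 alone was in all 3 sets. With the mean of a gene's probes, however, Fga, Fgb and Plat had such a p and F12 did not. F12 was also not among the genes without BBMP 1, BBMP 2, BBMP 3 or corn oil 2. Every BBMP liver lay below every corn oil liver for 13 of the 27 genes (48.1%), against 9.58% of all features, and every BBMP liver lay above for 0 genes, against 8.25%. In either direction the groups did not overlap for 17.8% of all features. The groups parted downward for 9 genes with normexp, 9 with quantile normalization and 11 with median scaling. Among all features 9.27%, 9.37% and 8.31% did so in these 3 settings. The genes with a lower mean numbered 19, 20 and 18 there. Each of the 27 genes was well above background on all 6 arrays, so none was tested through 1 group alone. Without corn oil 2 the groups parted downward for 15 genes, against 13.1% of all features, and upward for 1. In either direction 24.3% of all features parted in that fit. There 3 genes had an unadjusted p under 0.05, against 6.87% of all features. Fga and Plat were lower after BBMP and Serpina5 was higher (0.45). The count at an unadjusted p was 2 without BBMP 1, 2 without corn oil 1 and 1 without corn oil 3, while 7.98%, 11.4% and 10.68% of all features had such a p in these fits, so the genes' share there was below that of all features.

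**Figure D1:**
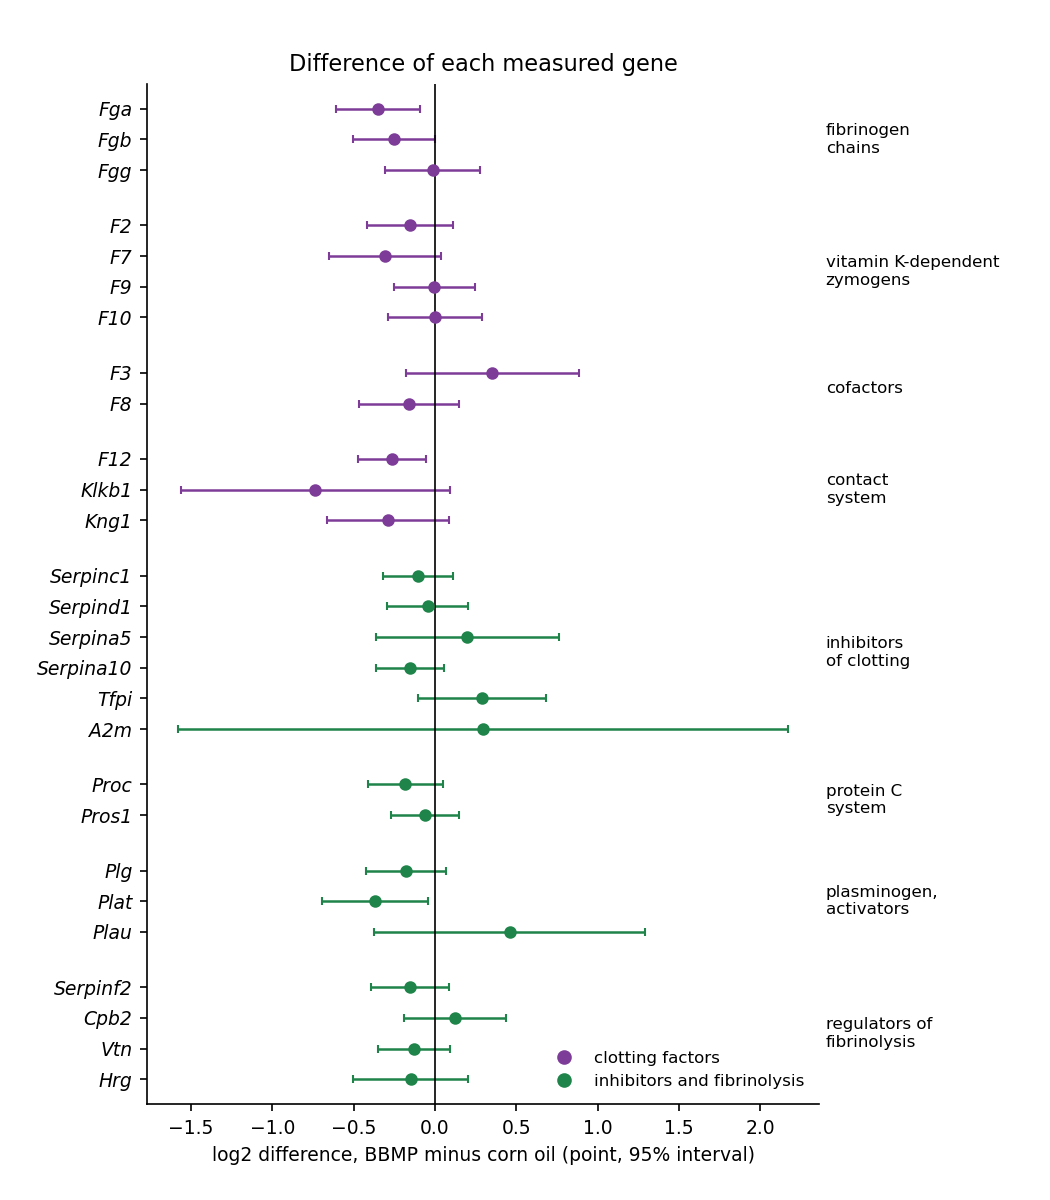
Log2 difference of each of the 27 measured genes, BBMP minus corn oil, as points with 95% intervals from limma (3 livers a group), in rows by role and coloured by class. The intervals of Fga, Fgb, F12 and Plat lie below 0, and that of A2m is the widest, from -1.58 to 2.17.

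The fibrinogen chains Fga, Fgb and Fgg form the hexamer that thrombin turns into fibrin. Fga, the alpha chain, had log2 signals of 8.84, 9.06 and 9.01 in BBMP livers, against 9.29, 9.24 and 9.42 in corn oil livers. The 3 BBMP livers all lay below the 3 corn oil livers, with BBMP 1 lowest. The difference was -0.35 ± 0.11 (SE), a BBMP signal 0.785 times that of corn oil with a 95% interval of 0.657 to 0.937 (limma adjusted p = 0.405). Fgb, the beta chain, had 9.96, 10.08 and 9.83 in BBMP livers, against 10.19, 10.27 and 10.18 in corn oil livers. Here too the groups did not overlap, and the difference was -0.25 ± 0.10 (limma adjusted p = 0.459). A further Fgb probe differed by -0.22 ± 0.09 and also parted the groups. Fgg, the gamma chain, had 9.11, 9.24 and 9.33 in BBMP livers, against 9.17, 9.13 and 9.42 in corn oil livers. The groups overlapped, with a difference of -0.02 ± 0.12 and a 95% interval of -0.31 to 0.28. The Fgg difference was -0.18 with normexp, and its sign turned to 0.078 with quantile normalization and to 0.00049 with median scaling. The other Fgg probe differed by -0.08 ± 0.12.

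The 3 fibrinogen genes lie next to each other on chromosome 2, in the order Fgg, Fga, Fgb. The log2 ratio of Fga to Fgg in the same liver was -0.26, -0.18 and -0.32 after BBMP, against 0.13, 0.11 and 0.00 in corn oil livers. All 3 BBMP livers lay below all 3 corn oil livers in this ratio, and the ratio differed by -0.33. An exact permutation test over the rats, two-sided, gave p = 0.1, which is the smallest p that 3 against 3 rats allow, and 0.3 after Benjamini-Hochberg adjustment over the 3 pairs of chains. The ratio of Fgb to Fgg differed by -0.24 (exact permutation p = 0.3, adjusted 0.45) and that of Fga to Fgb by -0.10 (exact permutation p = 0.5, adjusted 0.5). These ratios were chosen after the values of the genes had been seen, and were taken with the main processing only. With normexp the genes differed by -0.23 for Fga, -0.30 for Fgb and -0.18 for Fgg, so Fga and Fgg lay closer together.

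**Figure D2:**
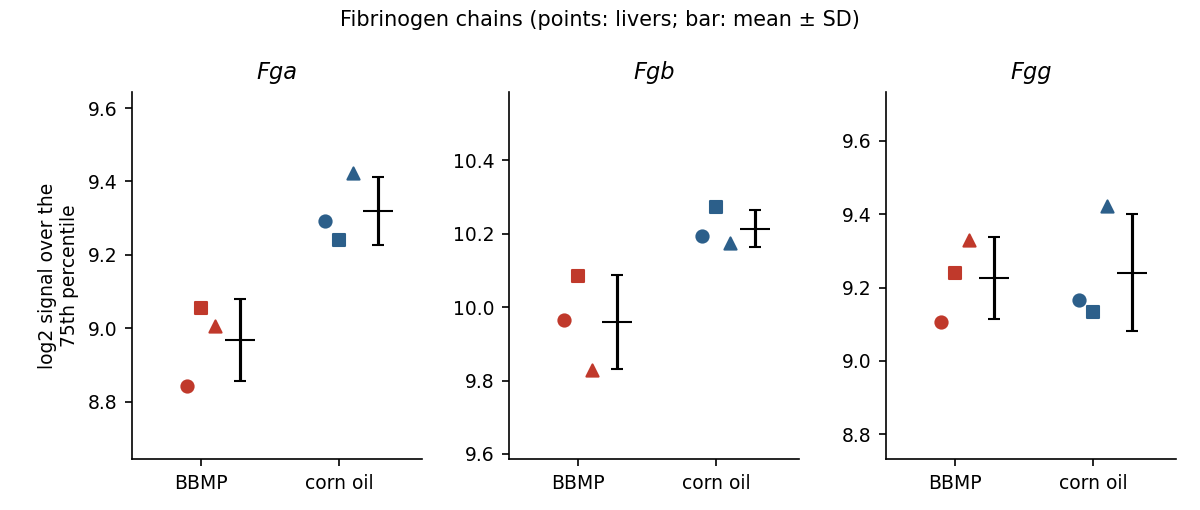
Log2 signal of the 3 fibrinogen chains in each liver, with BBMP livers on the left of each panel and corn oil livers on the right. Circle, square and triangle mark rats 1, 2 and 3 of a group, bars give the mean ± SD, and each vertical axis spans the same range of log2 signal. The groups do not overlap for Fga and Fgb and overlap for Fgg.

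The 250 bases before the start sites of these genes are shown because 2 of 3 neighbouring genes had lower signals in every BBMP liver as processed here. Sequences are from RefSeq on the GRCr8 build, in which 24 of the 32 genes had a promoter entry, and are written 5′ to 3′ along the strand of the gene. Capitals mark letters searched on both strands after the values were known: GTTAAT (a core of the element for HNF1, a liver transcription factor), TTGCNNAA (an element for C/EBP factors), CTGGGA (a core of the IL-6 response element of acute phase genes) and CAAAGTCCA (an element for HNF4).
Fga promoter (chr2:170671919-170672168, plus strand, GRCr8): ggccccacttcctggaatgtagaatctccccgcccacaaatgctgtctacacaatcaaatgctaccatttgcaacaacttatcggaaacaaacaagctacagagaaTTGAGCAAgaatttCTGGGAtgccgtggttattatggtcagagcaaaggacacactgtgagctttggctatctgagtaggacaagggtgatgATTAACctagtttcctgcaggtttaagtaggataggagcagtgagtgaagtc
Fgb promoter (chr2:170700876-170701125, minus strand, GRCr8): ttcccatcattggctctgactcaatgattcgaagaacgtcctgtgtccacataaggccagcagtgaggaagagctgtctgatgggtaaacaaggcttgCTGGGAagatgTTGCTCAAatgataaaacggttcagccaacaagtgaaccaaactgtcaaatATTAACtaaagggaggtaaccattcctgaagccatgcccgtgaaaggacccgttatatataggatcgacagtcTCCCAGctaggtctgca
Fgg promoter (chr2:170652833-170653082, plus strand, GRCr8): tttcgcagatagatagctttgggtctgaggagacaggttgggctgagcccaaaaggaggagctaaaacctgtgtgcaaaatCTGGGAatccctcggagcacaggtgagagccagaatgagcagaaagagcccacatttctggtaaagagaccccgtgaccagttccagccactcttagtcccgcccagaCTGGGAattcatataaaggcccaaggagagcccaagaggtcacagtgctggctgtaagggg

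The Fga and Fgb windows each held GTTAAT and TTGCNNAA on one or the other strand, and the Fgg window held neither. The first base of the GTTAAT match lay 52 bases before the start of Fga shown here and 90 bases before that of Fgb. CTGGGA was found in all 3 windows, and CAAAGTCCA in none. Some genes have several promoter entries, and a gene was counted where any of its windows held the letters. Of 27457 genes with windows of the same length, 7.13% held GTTAAT, 9.99% TTGCNNAA, 27.4% CTGGGA and 0.39% CAAAGTCCA. Among the 24 coagulation genes with an entry, counted in the same way, GTTAAT was found in 7 (29.2%), TTGCNNAA in 8 (33.3%), CTGGGA in 15 (62.5%) and CAAAGTCCA in 1 (4.2%). The genes with GTTAAT were F13b, F2, Fga, Fgb, Plg, Proc and Tfpi. Those with TTGCNNAA were F13a1, F9, Fga, Fgb, Klkb1, Kng1, Proz and Serpinc1. Tfpi had a higher mean after BBMP, and every other measured gene of these 2 sets a lower one, though F9 hardly differed. These are matches of letters in a window, and binding was not measured. Their part in the differences was not tested.

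The vitamin K-dependent zymogens differed by -0.31 to -0.0020, and none of the 4 reached an unadjusted p of 0.05 as processed here. F7, which starts the extrinsic pathway together with tissue factor, had 1.24, 1.25 and 0.84 in BBMP livers, against 1.35, 1.53 and 1.36 in corn oil livers. The groups did not overlap, with BBMP 3 lowest, and the difference was -0.31 ± 0.14 (SE; limma adjusted p = 0.492). Without BBMP 3 it was -0.17. F2, the precursor of thrombin, differed by -0.15 ± 0.11 and its groups overlapped. The F2 difference was -0.34 with normexp, then at an unadjusted p under 0.05, and -0.023 with quantile normalization, and -0.075 without BBMP 3. F9, the factor missing in haemophilia B, had 6.70, 6.59 and 6.64 in BBMP livers, against 6.52, 6.66 and 6.76 in corn oil livers. Its difference of -0.0037 ± 0.10 had a 95% interval of -0.25 to 0.24. F10, which forms the prothrombin-cleaving complex with factor V, had 6.19, 6.23 and 6.15 in BBMP livers, against 6.34, 5.99 and 6.24 in corn oil livers. Its difference was -0.0020 ± 0.12, with a 95% interval of -0.29 to 0.29, and the signs of F9 and F10 turned with median scaling, to 0.012 for F9 and 0.014 for F10.

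Of the cofactors, F3 encodes tissue factor, the membrane receptor of factor VII that starts clotting. It differed by 0.35 ± 0.22 (SE; limma adjusted p = 0.586), and the groups overlapped, at -2.30 to -1.60 in BBMP livers and -2.59 to -2.12 in corn oil livers. The F3 difference was 0.19 without BBMP 2, 0.20 without corn oil 2 and 0.54 without BBMP 3. F8, the cofactor of factor IX, differed by -0.16 ± 0.13 (limma adjusted p = 0.673), and by -0.062 without BBMP 1. Sinusoidal endothelial markers, 8 of 9 of which had a higher mean after BBMP, summed to 54.3 to 64.9 times the 75th percentile in BBMP livers and 49.1 to 63.8 times in corn oil livers. In whole liver, fewer cells of a type and less RNA per cell cannot be told apart. The fibrin cross-linking enzyme F13a1, made by macrophages and megakaryocytes, had 2 probes that were not well above background on any array, so no difference is given.

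By their brightest probes, all 3 measured genes of the contact system were lower in every BBMP liver than in every corn oil liver, as were 9.58% of all features. This system, which also releases bradykinin, consists of the proteases factor XII and plasma prekallikrein and their cofactor kininogen. F12 had 7.71, 7.70 and 7.69 in BBMP livers, against 7.99, 8.005 and 7.90 in corn oil livers. The BBMP livers lay close together below all corn oil livers, and the difference was -0.26 ± 0.09 (SE), a BBMP signal 0.833 times that of corn oil with a 95% interval of 0.720 to 0.963 (limma adjusted p = 0.415). A dimmer F12 probe differed by -0.16 ± 0.11 with overlapping groups. Klkb1, which encodes prekallikrein, had 4.16, 5.30 and 5.50 in BBMP livers, against 5.67, 5.69 and 5.81 in corn oil livers. BBMP 1 lay far below the other livers, and the difference of -0.74 ± 0.34 (limma adjusted p = 0.494) was -0.32 without it. Kng1, a kininogen gene, had 7.05, 6.83 and 7.03 in BBMP livers, against 7.16, 7.06 and 7.55 in corn oil livers. The groups were parted by 0.01 only, with a difference of -0.29 ± 0.16 (limma adjusted p = 0.540) that was -0.14 without corn oil 3. The dimmer Kng1 probe differed by -0.15 ± 0.18 and its groups overlapped. Klkb1 and F11, which had no named probe, are neighbours on chromosome 16.

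**Figure D3:**
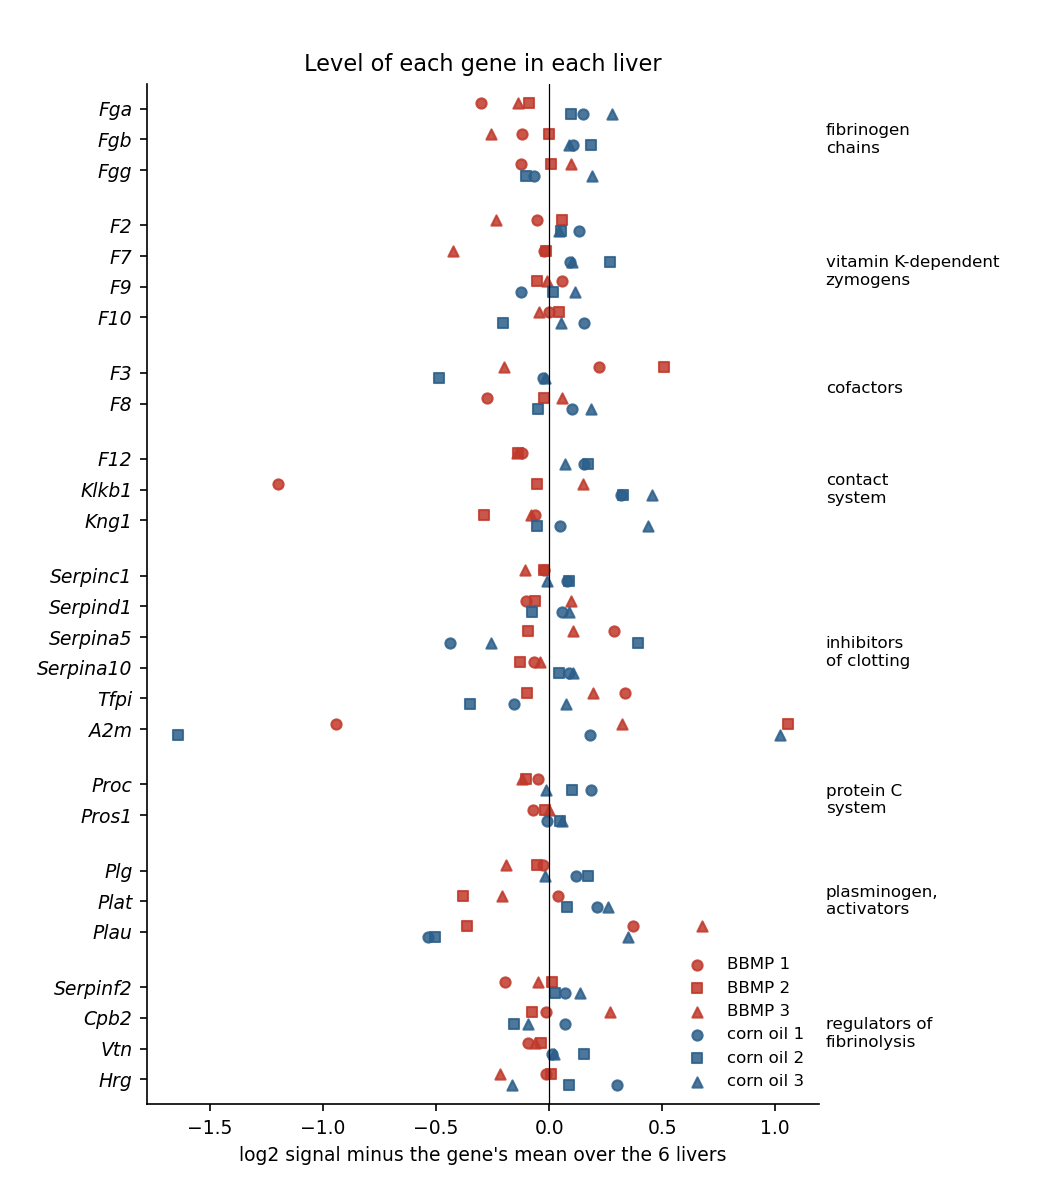
Log2 signal of each gene in each liver minus the gene's mean over the 6 livers, with BBMP livers in the upper line of each row (red) and corn oil livers in the lower line (blue). Red points lie to the left of all blue points for 13 genes, A2m spreads widely in both groups, and BBMP 1 is apart for Klkb1.

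The inhibitors of clotting did not share a direction: 3 of 6 had a higher and 3 a lower mean after BBMP. Serpinc1 encodes antithrombin, the main plasma inhibitor of thrombin and factor Xa. It had 9.54, 9.54 and 9.46 in BBMP livers, against 9.64, 9.65 and 9.55 in corn oil livers, and the groups were parted by 0.01. The difference was -0.10 ± 0.09 (SE; limma adjusted p = 0.699). Serpina10, the protein Z-dependent inhibitor of factor Xa, differed by -0.16 ± 0.09 (limma adjusted p = 0.548) without overlap, at 6.18 to 6.27 in BBMP livers and 6.35 to 6.42 in corn oil livers. Serpind1, heparin cofactor II, had 5.59, 5.63 and 5.79 in BBMP livers, against 5.75, 5.62 and 5.78 in corn oil livers. Its groups overlapped and the difference was -0.05 ± 0.10 (limma adjusted p = 0.894). Serpina5, the protein C inhibitor, differed by 0.20 ± 0.23 with overlapping groups. Tfpi blocks the complex of tissue factor and factor VII and differed by 0.29 ± 0.16 (limma adjusted p = 0.554), at -0.59 to -0.16 in BBMP livers and -0.84 to -0.42 in corn oil livers. Its other probes differed by 0.38 and 0.16.

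A2m, a broad protease inhibitor that is a major acute phase protein in the rat, varied more between rats than any other measured coagulation gene. It had 1.53, 3.53 and 2.79 in BBMP livers, against 2.65, 0.82 and 3.49 in corn oil livers. The lowest liver was corn oil 2 and the next was BBMP 1, while BBMP 2 and corn oil 3 were highest, so each group held a low and a high liver. The span over the 6 livers was 6.51-fold, at the percentile 98.96 of the spans of all features. The difference was 0.29 ± 0.78 (limma adjusted p = 0.910) with a 95% interval of -1.58 to 2.17. It was -0.45 without corn oil 2 and -0.16 without BBMP 2. The 2 other A2m probes differed by 0.33 and 0.32, and on them too corn oil 2 was lowest, BBMP 1 next, and BBMP 2 and corn oil 3 highest.

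**Figure D4:**
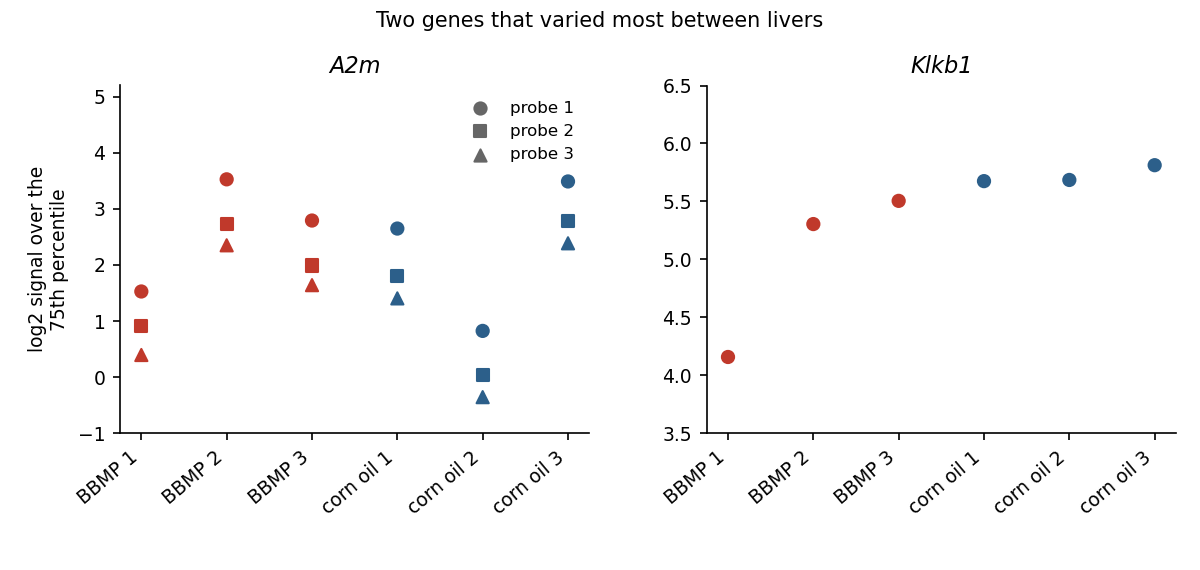
Log2 signal in each liver of the 3 A2m probes (circle, square and triangle) and of the Klkb1 probe, with BBMP livers in red on the left and corn oil livers in blue on the right. The A2m probes move together from liver to liver and both groups span the range, while Klkb1 is low in BBMP 1 at 4.16.

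In the protein C system, Proc and Pros1 encode the vitamin K-dependent anticoagulants protein C and its cofactor protein S. Proc had 7.79, 7.73 and 7.72 in BBMP livers, against 8.02, 7.94 and 7.83 in corn oil livers. The groups did not overlap, and the difference was -0.18 ± 0.10 (SE; limma adjusted p = 0.532), but the other Proc probe gave 0.08 ± 0.11. Pros1 differed by -0.06 ± 0.09, with a 95% interval of -0.27 to 0.15, and the sign turned to 0.09 with normexp background correction.

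Fibrinolysis starts when the activators Plat (tissue type) and Plau (urokinase type) cut plasminogen to plasmin. Plat had -0.15, -0.57 and -0.40 in BBMP livers, against 0.02, -0.11 and 0.07 in corn oil livers. The groups did not overlap, though BBMP 1 and corn oil 2 lay close together. The difference was -0.37 ± 0.13 (SE), a BBMP signal 0.775 times that of corn oil with a 95% interval of 0.618 to 0.971 (limma adjusted p = 0.435). Stellate cell and fibroblast markers, 9 of 12 of which had a lower mean after BBMP, summed to 39.2 to 45.5 times the 75th percentile in BBMP livers and 47.7 to 52.7 times in corn oil livers, without overlap. Among them the stellate genes Ngfr (-0.94), Lrat (-0.48) and Pdgfrb (-0.53) and the collagen gene Col3a1 (-0.34) had an unadjusted p under 0.05. None passed adjusted (smallest limma adjusted p = 0.376). Ngfr had a low signal, with means of -4.16 after BBMP and -3.22 in corn oil livers. Des (0.18), Dcn (0.17) and Acta2 (0.08) had a higher mean, and Des was higher in every BBMP liver than in every corn oil liver. The part of stellate cells and fibroblasts in the Plat difference was not tested. Plau differed the other way, by 0.46 ± 0.34 (limma adjusted p = 0.651), with overlapping groups at -3.45 to -2.41 in BBMP livers and -3.62 to -2.74 in corn oil livers. The Plau difference was 0.23 without BBMP 3, 0.75 without BBMP 2 or without corn oil 3, and 0.22 with normexp. All 11 Kupffer cell and macrophage markers measured also had a higher mean after BBMP, with 0 at an unadjusted p under 0.05, and they summed to 128.1 to 183.4 times the 75th percentile in BBMP livers and 106.2 to 169.5 times in corn oil livers. Their part in the Plau difference was not tested.

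Plg, plasminogen itself, had 8.93, 8.91 and 8.77 in BBMP livers, against 9.08, 9.13 and 8.94 in corn oil livers. The groups were parted by 0.01, and the difference was -0.18 ± 0.10 (SE; limma adjusted p = 0.556), while the dimmer Plg probe gave 0.04 ± 0.10. The Plg difference was -0.36 with normexp and -0.088 with quantile normalization. Of the genes that restrain or shape fibrinolysis, Serpinf2, the inhibitor of plasmin, differed by -0.15 ± 0.10 and Vtn, the vitronectin that binds the plasminogen activator inhibitor PAI-1, by -0.13 ± 0.09. Both were lower in every BBMP liver than in every corn oil liver. Hrg, a plasminogen- and heparin-binding glycoprotein, differed by -0.15 ± 0.15, and Cpb2, the carboxypeptidase that protects fibrin from plasmin, by 0.12 ± 0.13. The groups overlapped for Hrg and Cpb2.

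Clotting factors were compared with the other class, the inhibitors of clotting and the genes of fibrinolysis. That class also holds genes that restrain fibrinolysis, such as Serpinf2 and Cpb2, so not all of its genes oppose the clot. Of 12 measured clotting factors 11 had a lower mean after BBMP and 6 parted the groups downward, with a median difference of -0.21, while 52.5% of all features had a lower mean and 9.58% parted the groups downward. Of 15 measured inhibitors and fibrinolysis genes 10 had a lower mean and 7 parted the groups downward, with a median of -0.10. The medians differed by -0.10, by -0.03 without corn oil 3, by -0.17 with normexp, by -0.062 with quantile normalization and by -0.056 with no filter on dim probes. In single livers, the mean deviation of the clotting factors minus that of the other class was -0.13, 0.02 and -0.15 in BBMP livers, against 0.07, 0.12 and 0.06 in corn oil livers. The groups did not overlap in this difference of the classes. Without A2m, however, the values were -0.19, 0.10 and -0.13 in BBMP livers, against 0.08, 0.01 and 0.13 in corn oil livers, and the groups overlapped. No p is given for these summaries over a chosen list.

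The differences were also set beside the brightness of the probes. The 8 genes whose probe had a mean log2 signal above 8 (Fga, Fgb, Fgg, F2, Serpinc1, Plg, Vtn and Hrg) all had a lower mean after BBMP, with a median difference of -0.15, and 5 parted the groups downward. All 282 features in that range had a median difference of -0.08, and 18.4% parted the groups downward. With quantile normalization that median became 0.00, that of the 8 genes became -0.06, and 1 of the 8 parted the groups downward, against 9.93% of the features in that range. The difference of Fgb became -0.085. The 6 genes between 6 and 8 (F9, F10, F12, Kng1, Serpina10 and Proc) also all had a lower mean, with a median of -0.17 against 0.04 for the 893 features in that range, and 4 parted the groups downward with and without quantile normalization, against 15.9% of the features in that range with it and 12.8% without it. The part of brightness in the result was not tested.

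**Figure D5:**
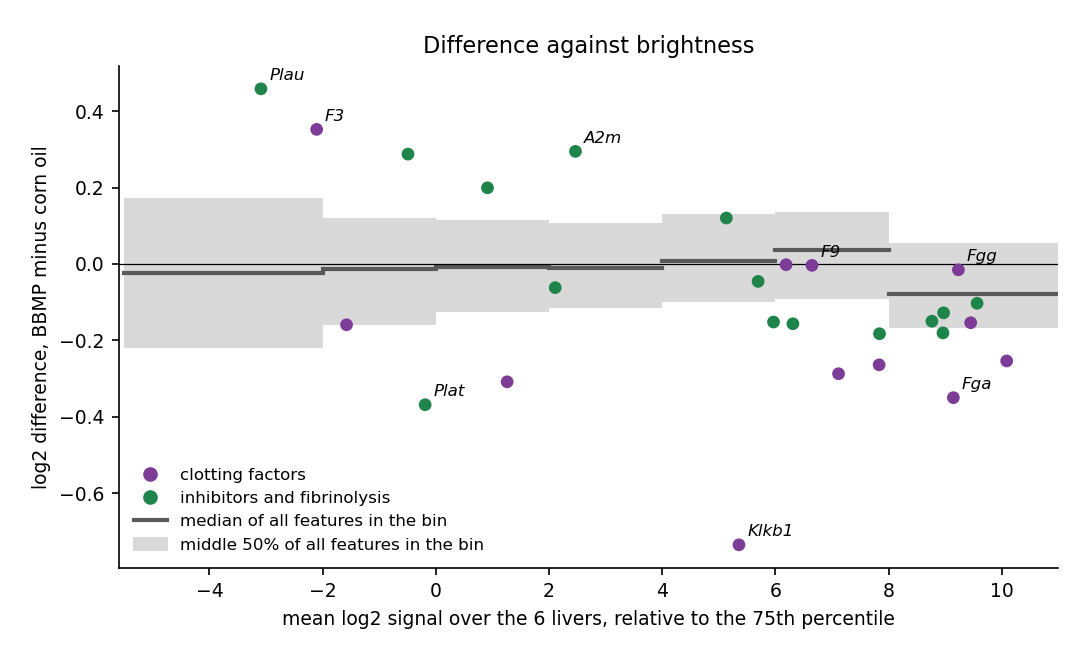
Log2 difference (BBMP minus corn oil) of the 27 genes against the mean log2 signal of their probe over the 6 livers, with the median (dark line) and the middle 50% (grey) of all 28112 features in bins of signal. The median of all features is -0.08 in the brightest bin, and most coagulation genes above a log2 signal of 6 lie below the line of their bin.

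The probes of 1 gene did not always give the same picture. No spot of the 46 probes was saturated, and 14 genes had more than 1 tested probe. Of the 16 further probes, 4 differed in sign from the brightest probe of the gene, those of Plg, Proc, Serpinc1 and Serpinf2. Of the 8 genes that parted the groups and had a further tested probe, 1 did so with it, Fgb. With the mean of a gene's probes, 9 of 27 genes parted the groups, all downward, against 9.08% of all features.

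Other genes of the pathway, from a list of receptors, carriers, vitamin K enzymes and relatives, gave 19 lower and 10 higher means among 29 measured, with a median difference of -0.07. None passed the adjusted threshold, and 3 had an unadjusted p under 0.05. Of these 2 were lower (6.9%) and 1 higher, against 6.09% lower and 4.7% higher among all features. Lman1, the carrier that moves factors V and VIII out of the endoplasmic reticulum, differed by 0.25 ± 0.09 (SE; limma adjusted p = 0.432) and was higher in every BBMP liver, at 3.58 to 3.67 against 3.31 to 3.42 in corn oil livers. Masp2, a protease of the lectin pathway of complement, differed by -0.29 ± 0.10, and Gas6, a vitamin K-dependent protein related to protein S, by -0.75 ± 0.29 with overlapping groups. Further plasma proteins made by hepatocytes had 23 of 26 means lower after BBMP, with a median of -0.15. Of these proteins 9 (34.6%) parted the groups downward, against 9.58% of all features. At an unadjusted p under 0.05, 3 were lower (11.5%), against 6.09% of all features: Itih4 (-0.29), Itih3 (-0.21) and the haem carrier Hpx (-0.25). The median of the measured coagulation genes was likewise -0.15, and no test was made between the lists.

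Factors that regulate clotting genes in the liver gave 14 lower and 10 higher means among 24 measured, and none passed the adjusted threshold. At an unadjusted p under 0.05, 2 were lower (8.3%) and 1 higher, against 6.09% lower and 4.7% higher among all features. Foxa2, a forkhead factor of hepatocytes, had 2.42, 1.25 and 2.52 in BBMP livers, against 2.62, 3.94 and 4.01 in corn oil livers. The groups did not overlap, though corn oil 1 lay near the BBMP livers, and the difference was -1.46 ± 0.49 (SE; limma adjusted p = 0.417). Socs3, a feedback inhibitor of IL-6 signalling, had -2.26, -2.14 and -2.34 in BBMP livers, against -1.75, -1.60 and -1.67 in corn oil livers, a difference of -0.58 ± 0.10 (limma adjusted p = 0.315). The thyroid hormone receptor Thrb differed by 0.47 ± 0.13 at a low signal. Platelet markers, of which 5 of 7 with a probe were measured and Ppbp and Gp1ba were not well above background, summed to 2.21 to 2.37 times the 75th percentile in BBMP livers and 1.22 to 2.52 times in corn oil livers. Among markers of other cells, the bile duct gene Cftr (-0.52) and the red cell membrane gene Epb42 (-0.65) were lower after BBMP at an unadjusted p under 0.05. Each was 1 of 6 measured in its list, against 6.09% of all features. Both had a low signal, with means of -3.97 after BBMP and -3.45 in corn oil livers for Cftr, and -4.77 and -4.12 for Epb42. The red cell list summed to 624.4 to 1090.1 times the 75th percentile in BBMP livers and 736.5 to 1008.4 times in corn oil livers, with 6 of 6 means lower after BBMP. Leukocyte markers summed to 3.87 to 6.01 times in BBMP livers and 5.19 to 7.77 times in corn oil livers, with Cd3e not well above background.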

How the data were processed

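The authors' deposited scanner files hold linear intensity per spot, read with Agilent Feature Extraction 10.7.1.1, which subtracted background, per the file headers; the submitters' processing notes name version 10.7. The authors' deposited value table also holds intensity, which was each array's processed signal divided by 1 constant. Outlier spots (up to 21 an array), 1319 control spots and 84 spike-in probes were left out. Probes were named by unversioned accession through RefSeq (GRCr8), which named 44.6% of them, and the array design was annotated on rn4.

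Values are log2 of processed signal over the 75th percentile of the array. Testing required a feature to be well above background on every array of 1 or both groups, and each gene is represented by its tested probe of highest mean. The groups come from the treatment label. R 4.3.3 with limma 3.58.1 gave the tests (lmFit, eBayes, two-sided, no covariate) over 28112 features, with Benjamini-Hochberg adjustment. Tables used Python 3.11.15 and pandas 2.3.3. On simulated data for this comparison, with 200 of 28112 features changed, the fit recovered 43.5% of log2 changes of 1 and 85.6% of changes of 2. The differences of the coagulation genes, at -0.74 to 0.46, were all smaller, and changes below 1 were not simulated. The simulated arrays held no effect of slide or scan.

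Every member is named. Values in each liver are given for genes with an unadjusted p under 0.05, a difference of at least 0.5 or an extreme p in their class, and for some others chosen after their values were seen. Of other lists, genes with an unadjusted p under 0.05 are named. The members and lists were chosen with earlier results of these data known. Alternatives were normexp (offset 50, on median spot signals, in place of the planned means, which the files used here lack), quantile and median scaling, 2 filters, the mean of probes, no saturated spots, a trend with robust moderation, the value table, a replicate block and leaving out each array.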

Additional observations from a re-analysis of the deposited data

How the results depend on the processing

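Under the 16 alternatives, all planned, 0 coagulation genes passed limma's adjusted p of 0.05 each time (smallest adjusted p = 0.317, with normexp), as reported. With quantile normalization 2 genes rather than 4 had an unadjusted p under 0.05, and the median difference of the clotting factors was -0.12 rather than -0.21. Leaving out 1 array gave 1 to 3 genes at an unadjusted p under 0.05, 13 to 16 genes whose groups do not overlap in either direction, a clotting factor median of -0.22 to -0.16, an inhibitor and fibrinolysis median of -0.13 to -0.08 and a difference of the medians of -0.13 to -0.033, the last without corn oil 3. In those fits 6.87% to 11.4% of all features had an unadjusted p under 0.05 and 24.3% to 31.5% did not overlap, against 17.8% with all arrays. The inhibitor and fibrinolysis median was -0.047 with normexp and with the mean of probes, against -0.10. Of 432 values of single genes under the alternatives, 416 kept their sign and side of the threshold and 16 turned sign, in 6 genes. These counts overstate stability. The filters, no saturated spots, the trend with robust moderation and the replicate block left every gene's difference unchanged. The value table, a rescaling of the same signal, hardly moved it. No gene came near the adjusted threshold, so its side could hardly change. Those turned by scaling or background were Serpind1 (0.016) and Pros1 (0.094) with normexp, Fgg (0.078) with quantile normalization, and Fgg (0.00049), F9 (0.012) and F10 (0.014) with median scaling. Without 1 array the differences that turned ranged over -0.069 to 0.076 for Fgg, -0.067 to 0.053 for F9, -0.10 to 0.074 for F10 and -0.45 to 0.88 for A2m. The cause was not tested. Same-numbered rats deviated together with correlations of 0.089, 0.016 and 0.072, so rats of 1 number were not treated as pairs. With the replicate block 0 genes passed adjusted, 3 had an unadjusted p under 0.05 and 13 did not overlap. Of all features, 11.5% had such a p with the block and 17.8% did not overlap. Where both groups lay near the background, as for F13a1, signal over background leaves no difference to give.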
